A study of Homo sapiens with 6 samples.

Results

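The 75 genes described here are named as genes for proteins of the mitochondrial ribosome, the mitoribosome, though MRPS36 is now placed in another complex. They were taken from the deposited gene table by symbol: MRPL or MRPS followed by a digit, without MRPL12 and MRPL32, without symbols that hold a hyphen and without symbols that end in P and digits, which mark pseudogenes. Of 60675 gene rows, 151 began with MRPL or MRPS and a digit, and 75 of these were members after 2 rows left out by name, 1 with a hyphen and 73 pseudogene symbols were removed. The choice also asked for an FPKM (fragments per kilobase of transcript, scaled to the mapped fragments of the library) of at least 1 in at least 3 of the 6 libraries. This floor removed 0 genes, since all 75 had an FPKM of at least 1 in all 6 libraries, and the lowest value of any member was 1.72, in MRPL42. The members were thus chosen by symbol and by FPKM level in the 6 libraries, and these rules do not use the difference between the groups. Earlier results of these data were known when the members were chosen, so the choice may not have been blind to that difference. Why MRPL12 and MRPL32 were left out by name is not stated.

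The RNA came from HCT116 cells, a long-established line from a human colon carcinoma. The K29Q group had 3 libraries of cells that stably expressed PHF5A K29Q, in which glutamine replaces a lysine, and the WT group had 3 libraries of cells that stably expressed wild-type PHF5A. PHF5A is a small protein of the SF3B complex, which recognises the branch site of introns, and the series title names its acetylation. Whether each group's 3 libraries are from different cultures or different stable lines is not stated in the labels, so the tests reflect library-to-library spread, possibly only technical. The introduced PHF5A and the copy that the cells carry share a gene total, and PHF5A had an FPKM of 44.1 ± 2.38 in K29Q and 33.1 ± 1.06 in WT (SD, n = 3 each).

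Mitoribosomes sit in the mitochondrial matrix and translate the few messenger RNAs made from mitochondrial DNA, all of which code for subunits of the respiratory chain and ATP synthase. Their ribosomal RNAs are made inside the organelle, while every protein is coded in the nucleus, made in the cytosol and imported. Many of the proteins have a bacterial counterpart, and others were gained in the mitochondrial lineage and have none. The names follow the large subunit (MRPL) and the small subunit (MRPS), with exceptions: MRPS30 and MRPS18A sit in the large subunit, and MRPS36 is now known as a component of the alpha-ketoglutarate dehydrogenase complex. Of the 75 members, 46 were classed as large subunit, 25 as small subunit, and 4 were not classed (MRPL55, MRPS18A, MRPS18B and MRPS36). The member of the large subunit that is listed as ICT1 in the table was not matched by symbol and is given with the related genes.

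The members lie on 21 chromosomes. What their promoters share was read from RefSeq promoter windows on GRCh38.p14, each running from 250 bases before to 50 bases after a start, of which 82 windows of 66 members were found. Both strands were searched for the letters of 5 motifs. The motif of YY1, a zinc finger factor, whose letters are the capitals of the stretches that follow, was present in 12.2% of the member windows, in 1.83% of 12812 windows of genes tested and in 0.849% of 35116 windows in all. The ETS core CCGGAAG was present in 39% of the member windows, against 17.4% for genes tested and 10.3% in all. The motif of NRF1, a regulator of nuclear genes for mitochondrial proteins, was present in 12.2%, 10.2% and 5.78% of the same windows. The GC box GGGCGGG was found in 47.6%, 52.8% and 33.1%, and TATAAA in 3.66%, 5.58% and 11.5%. Members with the YY1 letters had a median log2 difference between K29Q and WT of −0.02 (10 genes), and those without of −0.06 (56 genes). A match is a description of letters and not of binding.

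The 10 stretches with the YY1 letters are shown because the share of member windows with this motif was the highest of the 5 relative to windows of genes tested. Each stretch of 30 bases is given 5′ to 3′ on the strand where the motif reads forward, with the motif in capitals. In 9 of the 10 it lies on the strand of the gene and begins 6 to 35 bases after the first transcribed base, and in MRPL36 it lies on the other strand, before the start. None of the 10 shared bases with an ETS match.
MRPL22, chr5:154941093-154941122, plus strand: gtagcgggagggcgaAAGATGGCGGCggca
MRPL36, chr5:1799855-1799884, plus strand: gccaggaaggAAGATGGCGGCggggggggg
MRPL38, chr17:75904858-75904887, minus strand: gccggagggAAGATGGCGGCgccctggtgg
MRPL46, chr15:88467360-88467389, minus strand: ggagaacgaAAGATGGCGGCgcccgtaagg
MRPL50, chr9:101398575-101398604, minus strand: atctcatcgAAGATGGCGGCgcgatctgtg
MRPS10, chr6:42217832-42217861, minus strand: gggaccggcAAGATGGCGGCgcggacagcg
MRPS18A, chr6:43687762-43687791, minus strand: aggtttttgAAGATGGCGGCcctcaaggct
MRPS18B, chr6:30617854-30617883, plus strand: gcgtacgtcAAGATGGCGGCgtctgtatta
MRPS24, chr7:43869478-43869507, minus strand: gcttggcccAAGATGGCGGCctccgtgtgc
MRPS30, chr5:44808951-44808980, plus strand: tcgcgggcaAAGATGGCGGCggccaggtgt

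A start of another protein-coding gene on the other strand lay within 1000 bases upstream of 16 of the 75 members (21.3%), against 10.2% of 11224 protein-coding genes tested. MRPS11 and MRPL46, a protein of each subunit, start 34 bases apart on opposite strands of chromosome 15. Other such partners were NDUFS6, a subunit of respiratory complex I, which starts 34 bases from MRPL36, and NDUFB5, another subunit of that complex, which starts 36 bases from MRPL47.

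Levels of the members spanned a 43.3-fold range of mean FPKM, a value per transcript length. The highest were MRPL14 with 93.5, MRPL41 with 75.8 and MRPL18 with 69.7 (means of 6 libraries), all of the large subunit. MRPL14 is a conserved protein on the face of the large subunit that meets the small subunit, where the assembly factor MALSU1 also binds. The small subunit protein with the highest level, MRPS34, had 69.0. The lowest were MRPL42 with 2.16, MRPL46 with 2.60 and MRPS11 with 3.61. In all, 5 members lay over 50, 18 from 20 to 50, 46 from 5 to under 20, and 6 under 5. The median was 15.8 for the members and 5.20 for the 13261 genes tested, and by subunit it was 16.0 for the large and 15.3 for the small subunit. Together the members made up 0.562%, 0.574% and 0.565% of the FPKM sum in K29Q 1 to 3, and 0.574%, 0.601% and 0.589% in WT 1 to 3.

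**Figure D1:**
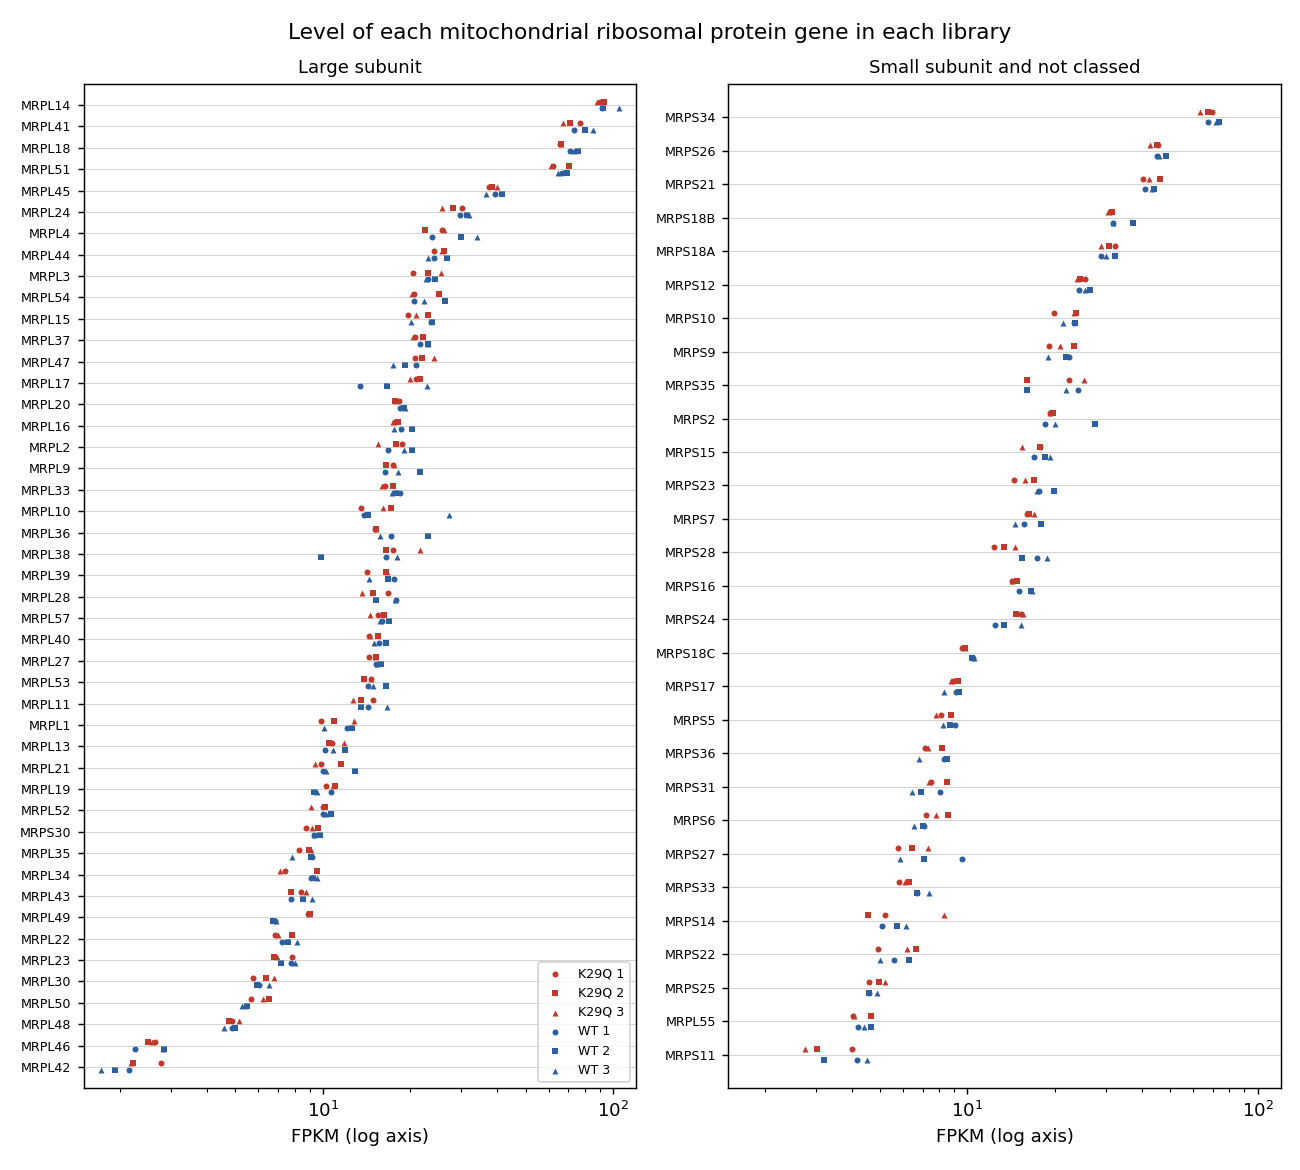
FPKM (log axis) of each of the 75 members in each library, ordered by mean level, with the large subunit on the left and the small subunit and the genes not classed on the right. K29Q libraries are red and WT libraries blue, and the symbols mark replicates 1 to 3; MRPL14 is the highest at 93.5 and MRPL42 the lowest at 2.16 (means of 6 libraries).

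Below MRPL14 and MRPL41, the next 3 members by level did not separate. MRPL18 had 65.7, 66.4 and 66.3 FPKM in K29Q 1 to 3 and 71.0, 75.9 and 73.2 in WT 1 to 3, MRPS34 had 69.5, 67.7 and 63.5 in K29Q and 67.5, 73.7 and 72.0 in WT, and MRPL51 had 62.3, 70.6 and 61.0 in K29Q and 66.5, 69.5 and 64.9 in WT (MRPS34 and MRPL51 chosen after their values were seen). These 3 ranges overlap across libraries. MRPL14 stood above them in every library, with 90.3, 93.2 and 88.3 in K29Q and 91.6, 92.5 and 105 in WT. MRPL41 also exceeded these 3 within each library, with 77.3, 70.9 and 67.5 in K29Q and 73.7, 80.3 and 85.1 in WT. Its range across libraries overlapped theirs and lay below that of MRPL14. At the bottom, MRPL42 and MRPL46 also overlapped, with 2.76, 2.22 and 2.18 FPKM against 2.63, 2.50 and 2.59 in K29Q 1 to 3, and 2.15, 1.92 and 1.72 against 2.24, 2.83 and 2.80 in WT 1 to 3.

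None of the 75 members passed the test between K29Q and WT (limma on log2(FPKM + 1), adjusted p under 0.05 over 13261 genes), where 0.0528% of the genes tested passed. The smallest adjusted p of a member was 0.110. At an unadjusted p under 0.05 there were 4 members lower in K29Q and 1 higher, against 4.89% and 7.65% of all genes tested in these directions, so that 5 of 75 (6.67%) stood beside a background of 12.5%. The count moved with single libraries, as did the share of all genes tested: it was 8 without K29Q 1 (background 9.59%), 2 without K29Q 3 (6.52%), 10 without WT 1 (20.5%) and 3 without WT 2 (7.19%). The groups did not overlap for 14 members (18.7%, background 17.8%), 10 of them lower in K29Q (background 9%) and 4 higher (background 8.8%).

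The intervals limit what could have been missed between these 6 libraries. They rest on library-to-library spread, possibly only technical, and do not cover differences between cultures or stable lines. On the log2(FPKM + 1) scale, changes of low genes are also understated. The 95% confidence interval of the log2 difference lay within ±0.5 for 66 of the 75 members and within ±0.25 for 33, against 82.7% and 29.8% of all genes tested, and within ±1 for all 75. The 9 members whose interval reached 0.5 in size were MRPL4, MRPL10, MRPL17, MRPL36, MRPL38, MRPS11, MRPS27, MRPS28 and MRPS35. Ratios of mean FPKM, K29Q over WT, ran from 0.782 in MRPS28 to 1.31 in MRPL49, and 72 of 75 lay between 0.8 and 1.25. In bulk RNA, fewer cells with a transcript and less of it per cell cannot be told apart.

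**Figure D2:**
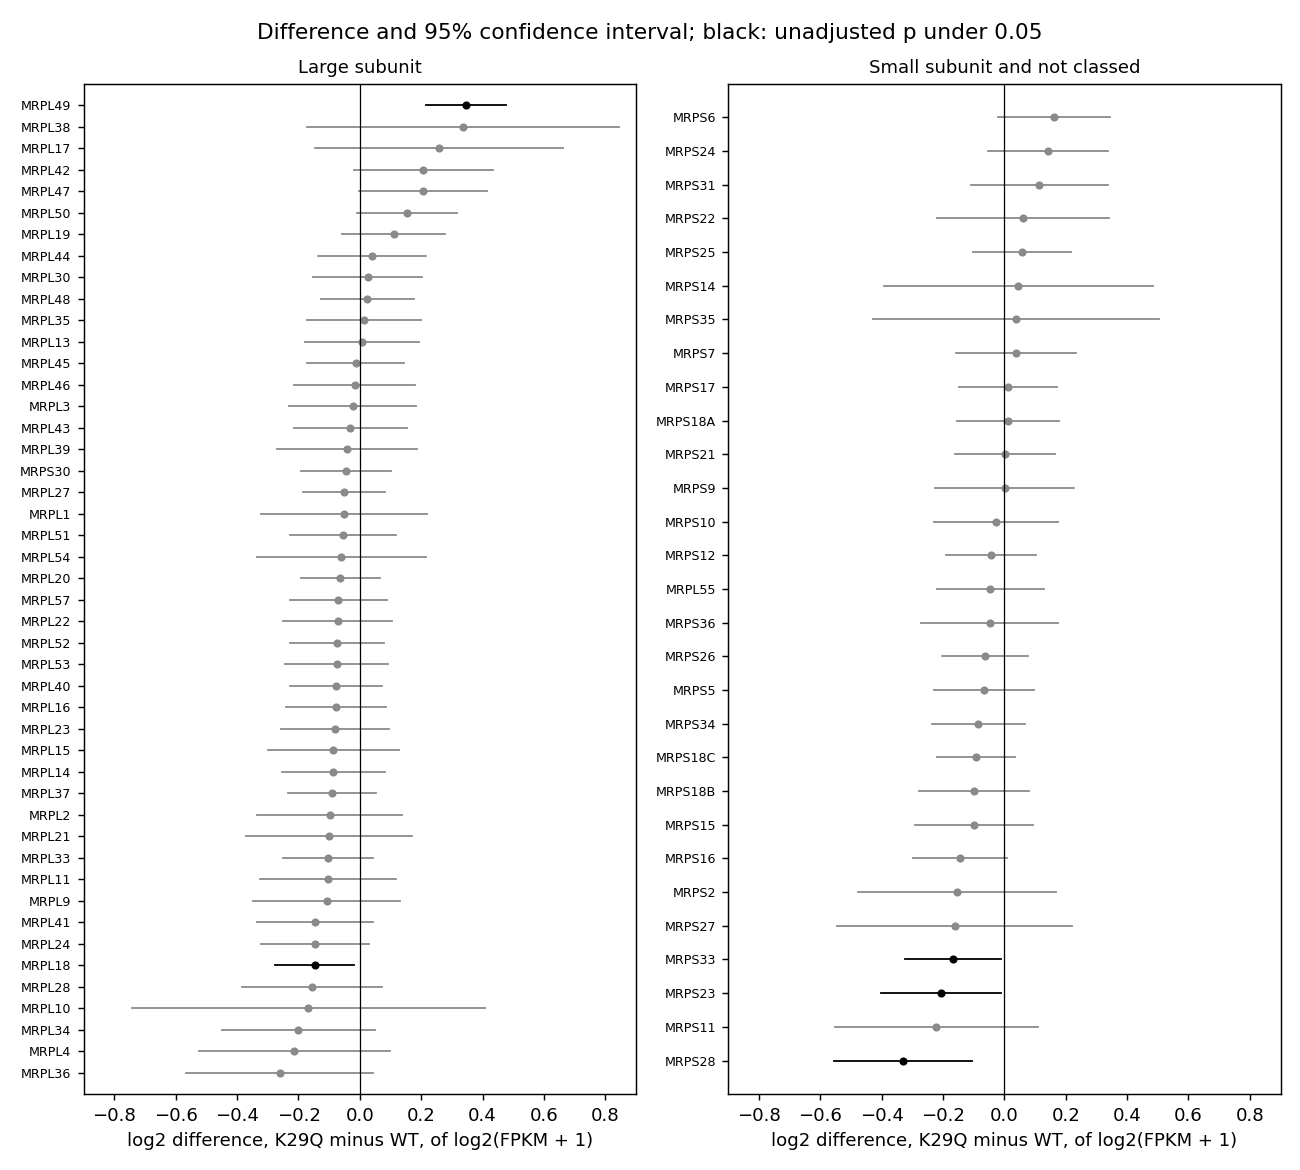
Log2 difference, K29Q minus WT, of each member with its 95% confidence interval (bars), by subunit. Black marks the 5 members at an unadjusted p under 0.05, of which MRPL49 lies above 0 and MRPS28, MRPL18, MRPS33 and MRPS23 below it; none passed the adjusted threshold.

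As a list the members leaned slightly to lower values in K29Q. Of the 75, 51 lay below 0 (68%, where 49% of all genes tested did), and the median log2 difference was −0.06, against 0.0030 for all genes tested. The members had higher levels than most genes tested. With a floor of 5 on mean FPKM the medians were −0.06 for 69 members and −0.02 for 6784 genes tested. Across members the Pearson r of the difference with mean log2 level was −0.231. The large subunit had 34 of 46 below 0 with a median of −0.07, and the small subunit 14 of 25 with a median of −0.04. By origin, the medians were −0.09 for 27 large subunit genes with a bacterial counterpart, −0.04 for 19 without, −0.04 for 16 small subunit genes with one and −0.06 for 9 without. Cytosolic ribosomal protein genes, taken by symbol from the same fit, had 60 of 85 below 0 and a median of −0.03.

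By library, the median deviation of the members from their own 6-library means (log2) was −0.05, 0.01 and −0.03 in K29Q 1 to 3 and −0.0017, 0.07 and 0.01 in WT 1 to 3. K29Q 2 lay above WT 1 and WT 3, so the groups overlapped, and the SD of these medians within groups was 0.034. WT 2 was the highest library for 30 of the 75 members, and without it the median log2 difference over members was −0.02. The summed FPKM of the members was 1402, 1444 and 1407 in K29Q and 1435, 1518 and 1493 in WT, with K29Q 2 above WT 1. The median was −0.09 on flow cell A (K29Q 1 and 2 against WT 2) and −0.04 on flow cell B (K29Q 3 against WT 1 and 3). Over all genes tested the median was 0.0105 on flow cell A and 0.0112 on flow cell B. Of the 75, 38 lay below 0 in both flow cells, 13 above 0 in both, and 24 had opposite signs. Neither these counts nor that of members highest in WT 2 has a share over all genes tested beside it. Across the 6 libraries the members shared little of their variation, with a median Pearson r of 0.17 over 2775 pairs that share libraries and depth.

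**Figure D3:**
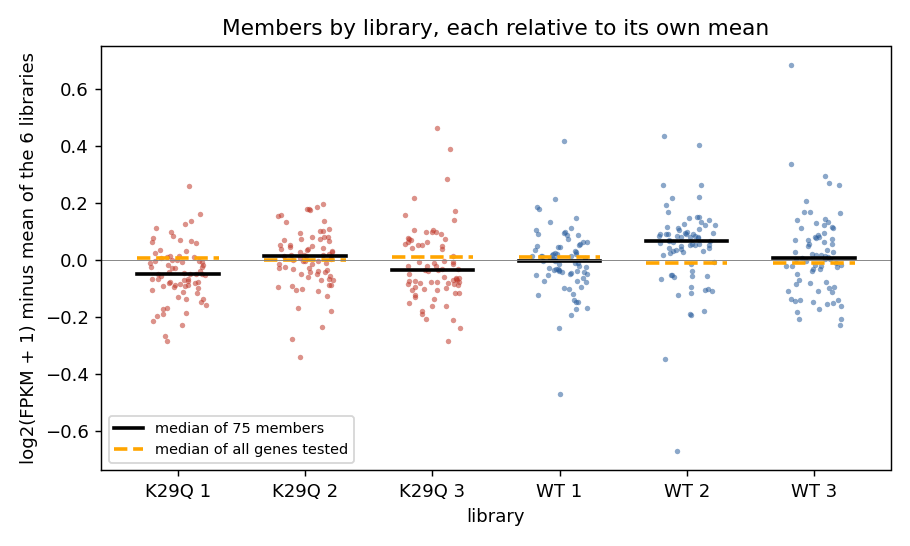
Each point is a member in a library, as log2(FPKM + 1) minus its mean over the 6 libraries; black bars are the medians of the 75 members and dashed orange bars those of all genes tested. The member median is highest in WT 2 at 0.07 and lowest in K29Q 1 at −0.05, and K29Q 2 at 0.01 lies above WT 1.

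Differences also moved with base composition, as they did over all genes. The median log2 difference was 0.03 for 12 members with up to 40% GC in the longest transcript, −0.04 for 32 members over 40 to 50%, −0.09 for 21 over 50 to 60%, and −0.12 for 10 over 60%. Over all genes tested the medians of the same classes were 0.15, 0.03, −0.04 and −0.05. Across members the Pearson r of the difference with GC content was −0.294 (75 genes of the same 6 libraries, which are not independent), and −0.364 across 13108 genes. With the trends on GC content and length removed from every library, the median over members was −0.04 and 53 of 75 lay below 0. Among members given with a log2 difference here or in the paragraphs that follow, the correction moved MRPL42 to 0.0072, MRPL47 to 0.09, MRPS6 to 0.07, MRPL24 to −0.09, MRPS33 to −0.26, MRPS18A to 0.07, MRPS18B to −0.05 and MRPS18C to −0.21, each by over 1.5 times, and none of these passed.

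**Figure D4:**
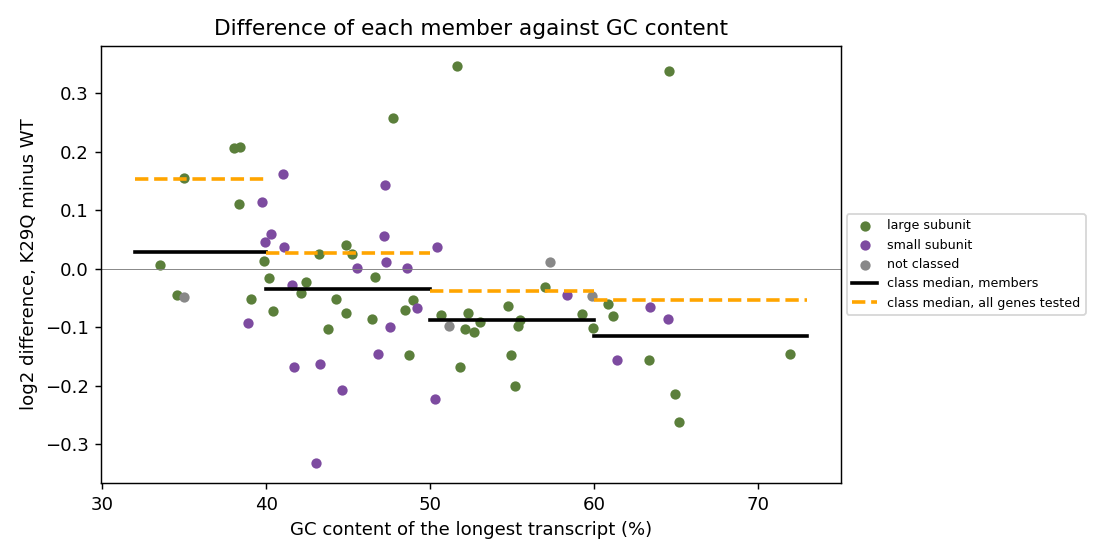
Log2 difference, K29Q minus WT, of each member against the GC content of its longest transcript (percent). Black bars are the member medians of 4 GC classes, falling to −0.12 over 60%, and dashed orange bars the medians of all genes tested in the same classes, at −0.05 over 60%.

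MRPL49, a large subunit protein with no bacterial counterpart, had the clearest difference of the members. Its FPKM was 8.88, 9.05 and 8.95 in K29Q 1 to 3 and 6.85, 6.74 and 6.91 in WT 1 to 3. The lowest K29Q library exceeded the highest WT library, and the spread within each group was small. The log2 difference was 0.35 (SE 0.055, 95% confidence interval 0.22 to 0.48), a ratio of 1.31, and did not pass the threshold (limma, adjusted p = 0.110). It was 0.36 on flow cell A and 0.34 on flow cell B. After GC and length correction it was 0.39 and passed (adjusted p = 0.0236), and with a flow cell term added to that correction it did not (adjusted p = 0.0800).

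MRPL49 (ENSG00000149792) lies on chromosome 11 from 65122183 to 65127371 (GRCh38, plus strand), and its exons overlap those of FAU and SYVN1 on the other strand. The strand option of the quantification is not given in the sources used here, so reads of overlapping genes may not be told apart. FAU, which codes for a ribosomal protein of the cytosolic small subunit fused to a ubiquitin-like part, had 91.5, 109 and 90.7 FPKM in K29Q and 101, 122 and 95.8 in WT. SYVN1, a ubiquitin ligase of the endoplasmic reticulum, had 8.44, 8.17 and 6.20 in K29Q and 7.27, 6.78 and 8.71 in WT, and the groups overlapped for both (chosen after their values were seen). The 250 bases before a RefSeq start are shown for MRPL49 and MRPS33, each on the strand of its gene, with NRF1 letters in capitals. MRPS33 is 1 of the 4 members lower in K29Q at an unadjusted p under 0.05, and the only of these 4 with an NRF1 match. The pair was chosen after values were seen and does not compare lower with higher members. NRF1 letters were in 12.2% of member windows and 10.2% of windows of genes tested. By GENCODE 29 the MRPS33 stretch lies inside the gene, which runs from 141002610 to 141015228.
MRPL49, chr11:65121933-65122182, plus strand: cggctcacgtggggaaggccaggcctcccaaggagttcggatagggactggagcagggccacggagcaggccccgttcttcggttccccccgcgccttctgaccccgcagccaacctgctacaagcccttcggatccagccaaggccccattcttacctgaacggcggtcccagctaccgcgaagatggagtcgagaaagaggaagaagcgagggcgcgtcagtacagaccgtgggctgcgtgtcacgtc
MRPS33, chr7:141014953-141015202, minus strand: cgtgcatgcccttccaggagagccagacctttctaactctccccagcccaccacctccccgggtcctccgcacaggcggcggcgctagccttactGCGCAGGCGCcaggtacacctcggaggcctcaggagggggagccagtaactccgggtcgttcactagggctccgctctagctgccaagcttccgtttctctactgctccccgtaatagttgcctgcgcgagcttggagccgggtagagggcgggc

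MRPS28, a small subunit protein with a bacterial counterpart, had the largest difference toward lower values. Its FPKM was 12.3, 13.4 and 14.6 in K29Q 1 to 3 and 17.4, 15.4 and 18.8 in WT 1 to 3, so the groups did not overlap. The log2 difference was −0.33 (SE 0.095, 95% confidence interval −0.56 to −0.11), at −0.24 on flow cell A and −0.29 on flow cell B, and did not pass the threshold (limma, adjusted p = 0.336). The gene (ENSG00000147586) lies on chromosome 8 from 79918717 to 80030289 (minus strand). Its exons overlap those of the model AC036214.3 on the same strand, which had 0.270, 0.491 and 0.290 FPKM in K29Q and 0.194, 0.153 and 0.107 in WT (chosen after its values were seen).

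The other 3 members lower in K29Q at an unadjusted p under 0.05 had no overlap between the groups and smaller differences than MRPS28. MRPL18, a large subunit protein with a bacterial counterpart, had the values given above, a ratio of 0.901 and a log2 difference of −0.15 (SE 0.054, limma, adjusted p = 0.388). MRPS33, with no bacterial counterpart, had 5.80, 6.27 and 6.10 FPKM in K29Q and 6.72, 6.70 and 7.38 in WT, a log2 difference of −0.17 (SE 0.066, adjusted p = 0.389). MRPS23, also particular to the mitochondrial lineage, had 14.4, 16.9 and 15.7 in K29Q and 17.6, 19.8 and 17.4 in WT, a log2 difference of −0.21 (SE 0.083, adjusted p = 0.392). By flow cell, A then B, the differences were −0.20 and −0.12 for MRPL18, −0.13 and −0.18 for MRPS33, and −0.32 and −0.14 for MRPS23.

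The next 4 members by p among those lower in K29Q were MRPS16, MRPL36, MRPL24 and MRPL34. MRPS16, a conserved small subunit protein, had 14.3, 14.9 and 14.2 FPKM in K29Q and 15.0, 16.6 and 16.7 in WT. Its exons overlap on the same strand with DNAJC9, which averaged 12.4 ± 1.12 in K29Q and 14.7 ± 2.71 in WT (SD, n = 3 each, chosen after its values were seen). The part of DNAJC9 in the MRPS16 value was not tested. MRPL36, the counterpart of a very small bacterial protein, had 15.1, 15.2 and 15.2 in K29Q and 17.1, 23.0 and 15.8 in WT, where WT 2 stood apart. Its neighbour NDUFS6 averaged 63.0 ± 2.89 in K29Q and 70.0 ± 4.53 in WT (SD, n = 3 each, chosen after its values were seen). MRPL24 averaged 28.0 ± 2.26 in K29Q and 31.0 ± 1.13 in WT, and MRPL34 averaged 8.02 ± 1.33 in K29Q and 9.30 ± 0.220 in WT (SD, n = 3 each), both with overlapping groups. The log2 differences were −0.15 for MRPS16, −0.26 for MRPL36, −0.15 for MRPL24 and −0.20 for MRPL34. Without WT 2 that of MRPL36 was −0.11. None of these 4 passed (limma, adjusted p from 0.412 for MRPS16 to 0.466 for MRPL34).

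Among members higher in K29Q, MRPL47, MRPL50, MRPL42 and MRPS6 followed MRPL49, and none passed (limma, adjusted p from 0.402 for MRPL47 to 0.438 for MRPS6). MRPL47, the counterpart of a bacterial protein near the exit of the peptide tunnel, had 20.8, 21.9 and 24.2 FPKM in K29Q and 21.0, 19.2 and 17.5 in WT, with K29Q 1 below WT 1 and a log2 difference of 0.21. MRPL50 had 5.64, 6.51 and 6.22 in K29Q and 5.42, 5.50 and 5.26 in WT, with no overlap. Its longest transcript has a GC content of 35.0%, and after GC and length correction its log2 difference was −0.0046, against 0.15 before. MRPL42 had 2.39 ± 0.325 in K29Q and 1.93 ± 0.214 in WT (SD, n = 3 each), a log2 difference of 0.21, and MRPL19 had 10.7 ± 0.425 in K29Q and 9.86 ± 0.714 in WT.

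MRPS6, a conserved small subunit protein, had 7.18, 8.57 and 7.77 FPKM in K29Q and 7.10, 7.04 and 6.53 in WT, with no overlap and a log2 difference of 0.16, which was 0.07 after GC and length correction. Its exons overlap on the same strand with SLC5A3, a sodium-coupled myo-inositol transporter. SLC5A3 had 9.58, 9.50 and 10.6 FPKM in K29Q and 6.31, 3.87 and 4.29 in WT, a log2 difference of 0.92 (limma, adjusted p = 0.110, chosen after its values were seen). The part of SLC5A3 in the MRPS6 value was not tested. MRPS24, another conserved protein of the small subunit, had 15.2 ± 0.446 in K29Q and 13.7 ± 1.46 in WT (SD, n = 3 each), with overlapping groups.

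The 3 paralogs of the bacterial small subunit protein that the MRPS18 names come from had different levels, and none of them passed the test between the groups. MRPS18A had 32.2, 30.7 and 28.9 FPKM in K29Q and 28.8, 32.2 and 30.03 in WT, with a log2 difference of 0.01. MRPS18B had 31.4, 31.5 and 30.6 in K29Q and 31.7, 37.1 and 31.8 in WT, with a log2 difference of −0.10. MRPS18C had 9.60, 9.78 and 9.82 in K29Q and 10.5, 10.4 and 10.5 in WT, with a log2 difference of −0.09 (SE 0.054, 95% confidence interval −0.22 to 0.04). MRPS18A and MRPS18B overlapped in level across libraries, and MRPS18C lay below both in every library. The groups of MRPS18B and MRPS18C did not overlap, by less than 1 FPKM between the nearest libraries.

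Libraries of the same group differed most in MRPL10, MRPL38, MRPS35, MRPS14 and MRPL17 (chosen after their values were seen, except MRPL38). MRPL10 had 13.6, 17.2 and 16.1 FPKM in K29Q and 13.9, 14.4 and 27.2 in WT, so WT 3 stood alone. MRPL38 had 17.5, 16.5 and 21.6 in K29Q and 16.5, 9.85 and 17.995 in WT, so WT 2 stood low. AC087289.3, a model on the same strand whose exons overlap MRPL38, had 4.997 FPKM in WT 2 and between 0.219 and 1.11 in the other 5 libraries (chosen after its values were seen). MRPS35 was low in the libraries with replicate number 2 of both groups, with 22.4, 16.1 and 25.3 in K29Q and 24.1, 16.0 and 21.8 in WT. MRPS14 had 5.21, 4.55 and 8.27 in K29Q and 5.08, 5.70 and 6.15 in WT. MRPL17 had 20.9, 21.6 and 19.9 in K29Q and 13.4, 16.6 and 22.9 in WT. The within-group SD on the log2 scale had a median of 0.091 over members and 0.107 over 9953 tested genes in the same range of levels.

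**Figure D5:**
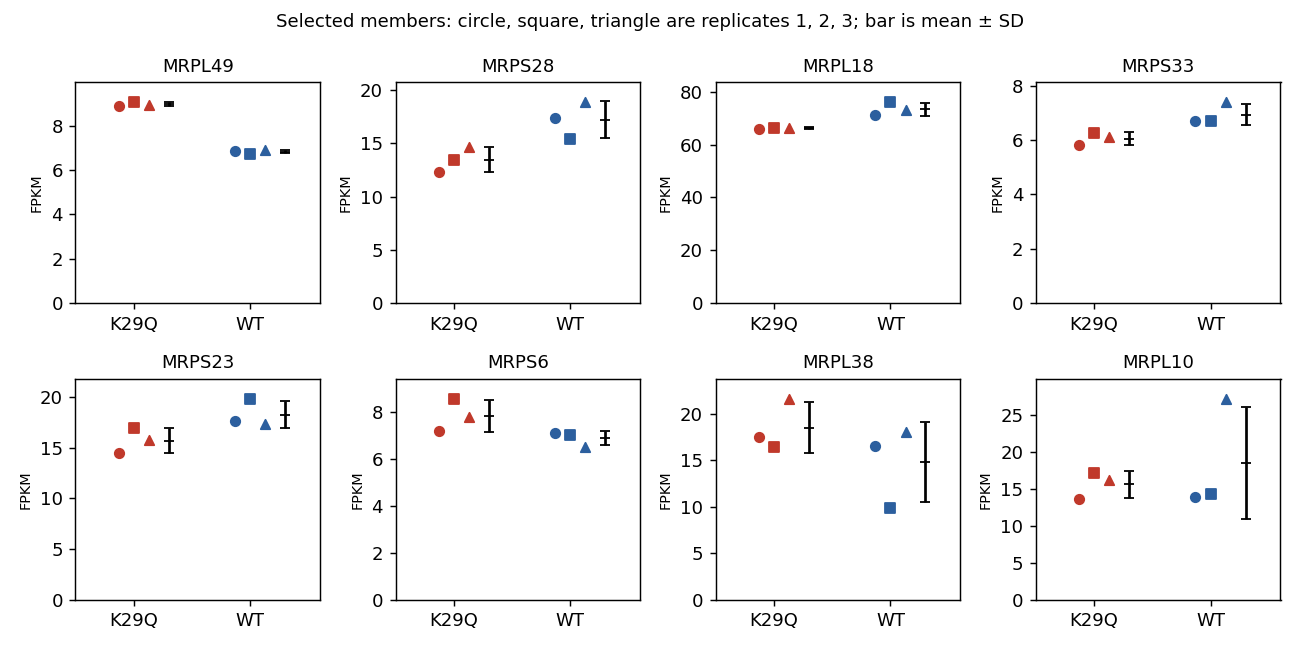
FPKM of 8 members in each library, K29Q left and WT right, each axis starting at 0; circle, square and triangle are replicates 1, 2 and 3, and the bar is the mean ± SD (n = 3). MRPL49 separates with little spread, while MRPL38 and MRPL10 each have 1 WT library apart, at 9.85 in WT 2 and 27.2 in WT 3.

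MRPS11 and MRPL46, which start back to back, both had overlapping groups. MRPS11 had 3.99, 3.04 and 2.75 FPKM in K29Q and 4.17, 3.21 and 4.50 in WT, while MRPL46 averaged 2.57 ± 0.0671 in K29Q and 2.62 ± 0.330 in WT (SD, n = 3 each). The log2 difference of MRPS11 was 0.09 on flow cell A and −0.51 on flow cell B.

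Copies and overlaps limit some values. Exons of 39 members overlap another gene model, 15 of them on the same strand, and 33 members have pseudogene rows in the table, 72 in all. The summed FPKM of the pseudogene rows exceeded 10% of the member's own value for 1 member, MRPS31, at 62.0%. MRPS31 had 7.78 ± 0.633 FPKM in K29Q and 7.12 ± 0.840 in WT, and its copy MRPS31P4 had 3.08 ± 0.181 in K29Q and 3.18 ± 0.313 in WT (SD, n = 3 each, both chosen after their values were seen).

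No other gene of mitochondrial translation on 5 lists of related genes passed the adjusted threshold (limma). Of the 6 mitoribosome proteins with other symbols, 4 lay above 0 and 2 below, and none reached an unadjusted p under 0.05. PTCD3, a pentatricopeptide repeat protein of the small subunit, had 6.89, 7.44 and 7.46 FPKM in K29Q and 7.22, 5.97 and 5.52 in WT. AURKAIP1, a small subunit protein, had 57.6 ± 4.06 in K29Q and 65.3 ± 7.36 in WT (SD, n = 3 each), and GADD45GIP1, of the large subunit, had 34.0 ± 1.20 in K29Q and 31.6 ± 1.997 in WT. ICT1, a peptidyl-tRNA hydrolase built into the large subunit, had 25.2 ± 2.28 in K29Q and 23.2 ± 1.49 in WT (named for its place in the large subunit, after its values were seen).

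Of 16 mitochondrial translation factors, 10 lay below 0 and 6 above, and none reached an unadjusted p under 0.05. LRPPRC, which stabilises mitochondrial messenger RNAs, had 21.1 ± 0.830 FPKM in K29Q and 18.1 ± 2.74 in WT (SD, n = 3 each). The elongation factor GFM1 had 3.41 ± 0.279 in K29Q and 2.96 ± 0.290 in WT, and MTRF1, of the release factor family, had 1.69 ± 0.124 in K29Q and 1.44 ± 0.179 in WT.

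Of 26 mitoribosome assembly factors, 15 lay below 0 and 11 above, with 1 in each direction at an unadjusted p under 0.05, where 4.89% (lower) and 7.65% (higher) of all genes tested were. DDX28, a DEAD-box helicase of large subunit assembly, had 5.73, 5.48 and 5.40 FPKM in K29Q and 6.40, 6.98 and 6.89 in WT. The groups did not overlap and the log2 difference was −0.25 (SE 0.063, limma, adjusted p = 0.289), at −0.27 on flow cell A and −0.26 on flow cell B. RPUSD4, a pseudouridine synthase that acts on the ribosomal RNA of the large subunit, had 7.07, 7.26 and 7.39 in K29Q and 6.49, 5.73 and 6.63 in WT (adjusted p = 0.389). FASTKD2, an RNA-binding protein of large subunit assembly, had 3.996 ± 0.610 in K29Q and 3.38 ± 0.192 in WT (SD, n = 3 each).

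Of 14 genes for transcription of mitochondrial DNA and its nuclear regulators, 13 were tested, 8 below 0 and 5 above. ESRRA, a nuclear receptor that acts with PGC-1 coactivators, had 11.3, 10.2 and 9.59 FPKM in K29Q and 15.8, 11.1 and 19.1 in WT, with overlap and a log2 difference of −0.50 (SE 0.178, limma, adjusted p = 0.380), at −0.04 on flow cell A and −0.80 on flow cell B. MYC, a growth factor-regulated transcription factor, had 1.86, 1.62 and 1.76 in K29Q and 0.952, 1.35 and 1.47 in WT (log2 difference 0.29, adjusted p = 0.379). MTERF1, which binds a termination site in mitochondrial DNA, had 1.49 ± 0.229 in K29Q and 1.12 ± 0.251 in WT (SD, n = 3 each).

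The RNAs coded by mitochondrial DNA, which include the ribosomal RNAs that the members bind, lay above 0 in 11 of 15 cases, and none passed the adjusted threshold. MT-RNR2, the ribosomal RNA of the large mitoribosomal subunit, had 2393, 2531 and 2341 FPKM in K29Q and 2179, 1966 and 1887 in WT, with no overlap (log2 difference 0.27, SE 0.071, limma, adjusted p = 0.318). The difference was 0.32 on flow cell A and 0.21 on flow cell B. MT-RNR1, the ribosomal RNA of the small subunit, had 1086, 1239 and 1089 in K29Q and 1084, 1018 and 940 in WT, also with no overlap, though K29Q 1 exceeded WT 1 by a few FPKM (chosen after its values were seen). MT-ND3, a complex I subunit, was lower, with 4058, 4238 and 4186 in K29Q and 4752, 4621 and 4858 in WT (log2 difference −0.19, adjusted p = 0.324), and MT-ATP8, of ATP synthase, had 2771, 2714 and 2814 in K29Q and 2457, 2624 and 2548 in WT (log2 difference 0.12, adjusted p = 0.403). After GC and length correction the difference was 0.01 for MT-ATP8 and −0.28 for MT-ND3, and neither passed. The groups did not overlap for 7 of the 15 higher in K29Q and 1 lower, against 8.8% and 9% of all genes tested. Among these 7 were MT-ATP6 and MT-ATP8, whose exons overlap each other on the same strand. Another was MT-ND4, whose exons overlap those of MT-ND4L. The 15 also lie on the same mitochondrial DNA and were read in the same 6 libraries, so they are not independent measures. Their count was not tested.

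Over the whole series, 13261 genes were tested and 7 passed the threshold. The steps in the values of single-exon genes, if 1 step is 1 fragment, gave an estimated depth of 33600000 to 40000000 fragments per library. Of 6 epithelial and intestinal markers, EPCAM (51.8 to 62.0 FPKM in K29Q and 48.2 to 61.1 in WT), CDH1, KRT8, KRT18 and CDX2 were present. The other, VIL1, was near 0, between 0.056 and 0.181 in K29Q and between 0.036 and 0.054 in WT. The leukocyte gene PTPRC was at 0 in K29Q and at most 0.0027 in WT, while COL1A1, a collagen listed as a gene the line should lack, was between 4.56 and 5.93 in K29Q and between 4.35 and 5.24 in WT. On the first principal component WT 1 lay at −4.72 beside the K29Q libraries (−4.76, −6.81 and −14.9 in K29Q 1 to 3), away from WT 2 and WT 3 at 13.2 and 17.99.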

How the data were processed

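Total RNA of 3 K29Q and 3 WT libraries of HCT116 cells was sequenced as paired reads. Per the file headers, the deposited table gives each library's FPKM for every gene. HISAT2 2.1.0, StringTie and GRCh38 are named in the submitters' processing notes, while for the StringTie version, annotation release and strand setting the value is not given in the sources used here. Columns were matched to samples by title, 0 columns belonged to other samples, and the run code in each header was read as the flow cell.

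Genes that reached 1 FPKM in 3 or more libraries were fitted as log2(FPKM + 1) with limma 3.58.1 (intensity trend, group as the only term) in R 4.3.3, with Benjamini-Hochberg adjustment over 13261 genes and a threshold of 0.05. Unless stated, adjusted p-values are from this test. Log2 differences on this scale understate changes of low genes. FPKM values are not counts, StringTie divides fragments among overlapping transcripts, and no count test was run. Depth is an estimate and no counting intervals were made. Positions, GC content and exon overlaps came from GENCODE 29 on GRCh38, where all 75 members were found, and promoter windows from RefSeq on GRCh38.p14.

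Members and lists were chosen with earlier results of these data known. Named members were the 8 with the smallest p in each direction, the 3 highest and 3 lowest in level, the MRPS18 paralogs, and the 3 with the smallest p of each related list; other members and related genes given with values are marked. Same-numbered libraries were not treated as pairs, since their deviations correlated at −0.140, 0.179 and −0.165 for numbers 1 to 3. Alternatives were quantile normalization, no filter, a floor of 5 on mean FPKM, 0.1 as pseudocount, the replicate block, a flow cell term, GC and length correction (splines with 5 degrees of freedom) with and without that term, leaving out each library, and members with no overlapping gene model.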

Additional observations from a re-analysis of the deposited data

How the results depend on the processing

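The count of members past the adjusted threshold was 0 under every alternative except GC and length correction, where it was 1 (MRPL49), while the count over all genes was 81 of 13108 there, PHF5A among them, against 7 of 13261. The count at an unadjusted p under 0.05 was 5, and moved to 8 with the GC and length correction with a flow cell term (background 15.2%), to 3 among the 36 members with no overlapping gene model (12.5%), and ran from 2 to 10 when a library was left out (6.52% to 20.5%). The count of members whose groups do not overlap was 14, was 7 of the 36 with no overlapping gene model, and ran from 14 to 31 with a library left out, where fewer libraries make separation easier. It has no value under quantile normalization, the replicate block or the flow cell terms, where it was not run. The median log2 difference over members ran from −0.0767 to −0.0244 with a library left out, the value nearest 0 being without WT 2. With the flow cell term the median over members was −0.0804, with 56 of 75 below 0, against 51 without that term. With the replicate block it was −0.06, with 2 members lower and 3 higher at an unadjusted p under 0.05 (background 9.96%), against 4 lower and 1 higher without the block, and no member passed the adjusted threshold either way.

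Signs turned for small differences that had not passed. With GC and length correction the log2 difference was −0.0046 for MRPL50 and −0.0193 for MRPL19. With a flow cell term added it was −0.0345 for MRPL50, −0.0565 for MRPL42, −0.0205 for MRPL19, −0.0217 for MTRF1, −0.0227 for MTERF1 and −0.0238 for MT-ATP8. With the flow cell term alone MRPS18A was at −0.0302. With a library left out MRPL46 ran from −0.0946 to 0.0246 and MRPS18A from −0.0251 to 0.0534. The cause was not tested. Of 538 values of 39 named genes under an alternative, 523 kept their direction and side of the threshold.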
